A study of Rattus norvegicus with 244 samples.

Results

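Transthyretin (Ttr), insulin-like growth factor 2 (Igf2) and insulin-like growth factor binding protein 2 (Igfbp2) were followed across single samples of rat raphe and somatomotor cortex after spinal cord trauma. The genes were taken by their symbols in the probe annotation, which gave 3 genes and 11 probe sets out of 10969 gene symbols and 26202 probe sets. Ttr had 2 probe sets, Igf2 had 6 and Igfbp2 had 3, and 1 further probe set that was annotated to one of these genes together with another gene was left out. Each gene is given by its probe set with the highest mean signal over all arrays, and the remaining probe sets serve as a check.

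Ttr encodes a carrier of thyroid hormone and, together with retinol-binding protein, of retinol in blood and cerebrospinal fluid, and in the brain it is made chiefly by the epithelium of the choroid plexus. Igf2 encodes an imprinted growth factor that the adult brain makes mainly in the choroid plexus and the leptomeninges, the thin membranes that cover its surface. Igfbp2 encodes a secreted protein that binds insulin-like growth factors and is found in the same borders of the brain and in some glia. The hindbrain that holds the raphe magnus lies between the fourth ventricle with its choroid plexus above and the leptomeninges below.

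In the rat assembly GRCr8 of RefSeq, Ttr lies on chromosome 18 at chr18:12216684-12225972, Igf2 on chromosome 1 at chr1:207243873-207261263 and Igfbp2 on chromosome 9 at chr9:81864811-81892179. The 250 bases before a start of each gene are shown from RefSeq because the signals of the 3 genes were correlated in the raphe and their starts differ in base composition. Capitals mark a match to a searched motif. The Ttr window is chr18:12218508-12218757 on the plus strand.
Ttr: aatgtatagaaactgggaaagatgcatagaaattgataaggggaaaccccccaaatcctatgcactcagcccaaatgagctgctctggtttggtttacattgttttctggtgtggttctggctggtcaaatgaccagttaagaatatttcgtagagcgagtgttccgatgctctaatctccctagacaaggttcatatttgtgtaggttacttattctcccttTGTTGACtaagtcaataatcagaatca
The Igf2 window is chr1:207250476-207250725 on the minus strand.
Igf2: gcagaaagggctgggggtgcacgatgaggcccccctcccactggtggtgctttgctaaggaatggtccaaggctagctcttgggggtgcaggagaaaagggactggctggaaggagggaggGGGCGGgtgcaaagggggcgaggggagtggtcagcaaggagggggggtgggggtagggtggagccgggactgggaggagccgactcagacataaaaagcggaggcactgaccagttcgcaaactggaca
The Igfbp2 window is chr9:81864561-81864810 on the plus strand.
Igfbp2: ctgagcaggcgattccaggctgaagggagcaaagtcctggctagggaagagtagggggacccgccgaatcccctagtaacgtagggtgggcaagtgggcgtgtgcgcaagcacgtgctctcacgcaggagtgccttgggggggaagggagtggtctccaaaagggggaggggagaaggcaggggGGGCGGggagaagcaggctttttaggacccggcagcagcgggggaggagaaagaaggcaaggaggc
Short motifs were searched for on both strands of each window. The first, TATAAA, is the core of the TATA box that places the start of transcription in many tissue-specific genes. The second, GGGCGG, is the GC box that is common in promoters of broadly expressed genes. The third, TGTTNAC, is a site of the type that forkhead factors bind. The last, TAATCC, is a site of the type bound by the homeodomain factors of the OTX family. None of these motifs overlapped another in the 3 windows. The table held a second Igf2 start, whose window chr1:207253981-207254230 had none of the motifs and a GC content of 62.4%. The Ttr window held TGTTGAC, a match to TGTTNAC that began 27 bases before the annotated start used here. Of 33469 rat promoter windows of the same length, 8.99% held that motif. The Igf2 window held GGGCGG 129 bases before the start and the Igfbp2 window held it 66 bases before the start, as did 30.5% of all windows. TATAAA was found in 12.9% and TAATCC in 6.34% of all windows, and none of the 3 windows held either. The Ttr window and both Igf2 windows lie inside the gene spans given above, so that their starts are not the outer ends of those genes. Whether transcription begins at the starts used was not tested. Motifs outside the windows were not searched for, so that a gene may hold such a motif elsewhere. The GC content was 40.4% for Ttr, 63.6% for Igf2 and 64.0% for Igfbp2, against a median of 51.2% over all windows.

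The series held 84 samples on 244 arrays of 3 types, and all 11 probe sets lay on the first type, which was hybridised with 40 raphe and 43 cortex samples. Naive rats gave 4 samples per region. Sham rats had a laminectomy without injury and injured rats had a moderate injury of the spinal cord, at 4 h, 24 h, 7 d, 14 d, 28 d and 3 mo. Injured groups held 4 samples per time and region (24 per region). Sham groups held 2 samples per time and region, but only 1 raphe sham sample at 3 mo had an array of the first type here, so that the raphe had 11 such samples and the cortex 12. The sham samples at 30 min (1 of the raphe and 2 of the cortex) and the single cortex sham sample at 72 h entered no comparison between groups, but they are among the samples of the correlations. Strain, sex, age and vertebral level are not given in the sources used here, nor whether a sample is 1 animal, so that p-values measure the spread between these samples, which may be technical in part.

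The values are signal intensities that the authors had scaled to a common mean. The mean of each array without the highest and lowest 2% of values lay between 800.5 and 801.3. Array medians of the first type lay between 185.8 and 333.4. The 3 probe sets lay above the 90th percentile of the 15 Bacillus subtilis control probe sets on all 83 arrays. The mean log2 signal of a list of cortical neuron genes was 9.31 to 10.94 in the cortex samples and 6.60 to 7.75 in the raphe samples, with no overlap. The mean of a list of serotonergic and hindbrain genes was 7.76 to 8.51 in the raphe and 6.95 to 8.35 in the cortex, where the ranges overlapped. A total of 4 samples on the first array type were doubted. The raphe injured sample 1 at 4 h had a 3' to 5' ratio of actin of 29.1, against at most 2.42 in the other raphe samples. The cortex sham sample 2 at 14 d and the cortex injured sample 2 at 7 d had 5th percentiles of signal of 44.8 and 31.3, against at most 17.3 in the cortex samples not doubted, and the cortex sham sample 1 at 3 mo had the lowest mean of the cortical list, 9.31. The labels of 2 cortex injured samples at 24 h gave 4 h in another field, and the 2 fields also gave different times for the raphe sham sample at 30 min. The title was followed in each case.

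Ttr in the raphe was the most variable of the 6294 probe sets of its array type that passed the filter on low signals. Its signal ran from 118 in the injured sample 4 at 7 d to 52950 in the injured sample 1 at 14 d, a 448-fold range. Its standard deviation within groups was 2.39 on the log2 scale, against a median of 0.41 over those probe sets. In the cortex the range was 67.7-fold, from 127 to 8614, with a within-group standard deviation of 0.82, and Ttr ranked 82 of 6261. Igf2 ranged over 19.1-fold in the raphe and 2.63-fold in the cortex, with standard deviations of 0.86 and 0.29. Igfbp2 ranged over 14.4-fold in the raphe and 3.15-fold in the cortex, with standard deviations of 0.65 and 0.33. By this rank Igf2 stood at 132 and Igfbp2 at 779 in the raphe, and at 4270 and 3455 in the cortex.

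The naive raphe held the 3 genes at unequal evenness. The Ttr signal was 484, 4254, 351 and 473 in the 4 naive samples, so that a single sample stood apart from the rest. Igf2 was 2172, 1701, 2844 and 3296 in the same samples, and Igfbp2 was 1191, 1410, 1660 and 1285. The sample with the high Ttr had the lowest Igf2 of the naive group.

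The sham raphe samples fell far apart in Ttr within the same time. At 4 h the sham pair gave 27579 and 380, at 24 h 30644 and 423, and at 7 d 445 and 3380. The sham pair at 14 d gave 428 and 702, the pair at 28 d 1371 and 654, and the lone sham sample at 3 mo gave 28942. Across all 12 sham samples the lowest Ttr was 380, the median 1036 and the highest 30644. Igf2 in the sham samples had a lowest value of 844, a median of 1308 and a highest of 3488, and Igfbp2 had 449, 865 and 1657. The 3 sham samples with the highest Ttr had Igf2 signals of 2376, 2397 and 2877, all above the sham median, and Igfbp2 signals of 1369, 1657 and 1631.

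In the injured raphe Ttr was 3599, 25329, 16722 and 8038 at 4 h and 382, 2082, 374 and 1722 at 24 h. It was 378, 20711, 227 and 118 at 7 d and 52950, 37120, 1991 and 15850 at 14 d. At 28 d it was 606, 45392, 442 and 1201, and at 3 mo 389, 689, 260 and 11591. No injured sample at 24 h was above 2082, while at 7 d, 28 d and 3 mo a single sample of the 4 was far above the other 3.

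Igf2 in the injured raphe was 601, 1643, 1476 and 2681 at 4 h and 887, 1025, 883 and 846 at 24 h. It was 837, 5137, 795 and 817 at 7 d and 6300, 3954, 2641 and 1525 at 14 d. It was 3432, 11465, 3068 and 1124 at 28 d and 1115, 3571, 832 and 1491 at 3 mo. The lowest of these, 601, came from the sample with the high actin ratio, and at 28 d Igf2 was 3068 or more in 3 of 4 samples, of which 1 had the high Ttr.

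Igfbp2 in the injured raphe was 2431, 1717, 1339 and 1749 at 4 h and 808, 814, 550 and 935 at 24 h. It was 751, 2675, 1042 and 896 at 7 d and 3733, 2733, 1663 and 1291 at 14 d. It was 1202, 6484, 1507 and 1039 at 28 d and 563, 1234, 735 and 1014 at 3 mo. The highest sample of Igf2 and of Igfbp2 was the same, the injured sample 2 at 28 d.

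**Figure D1:**
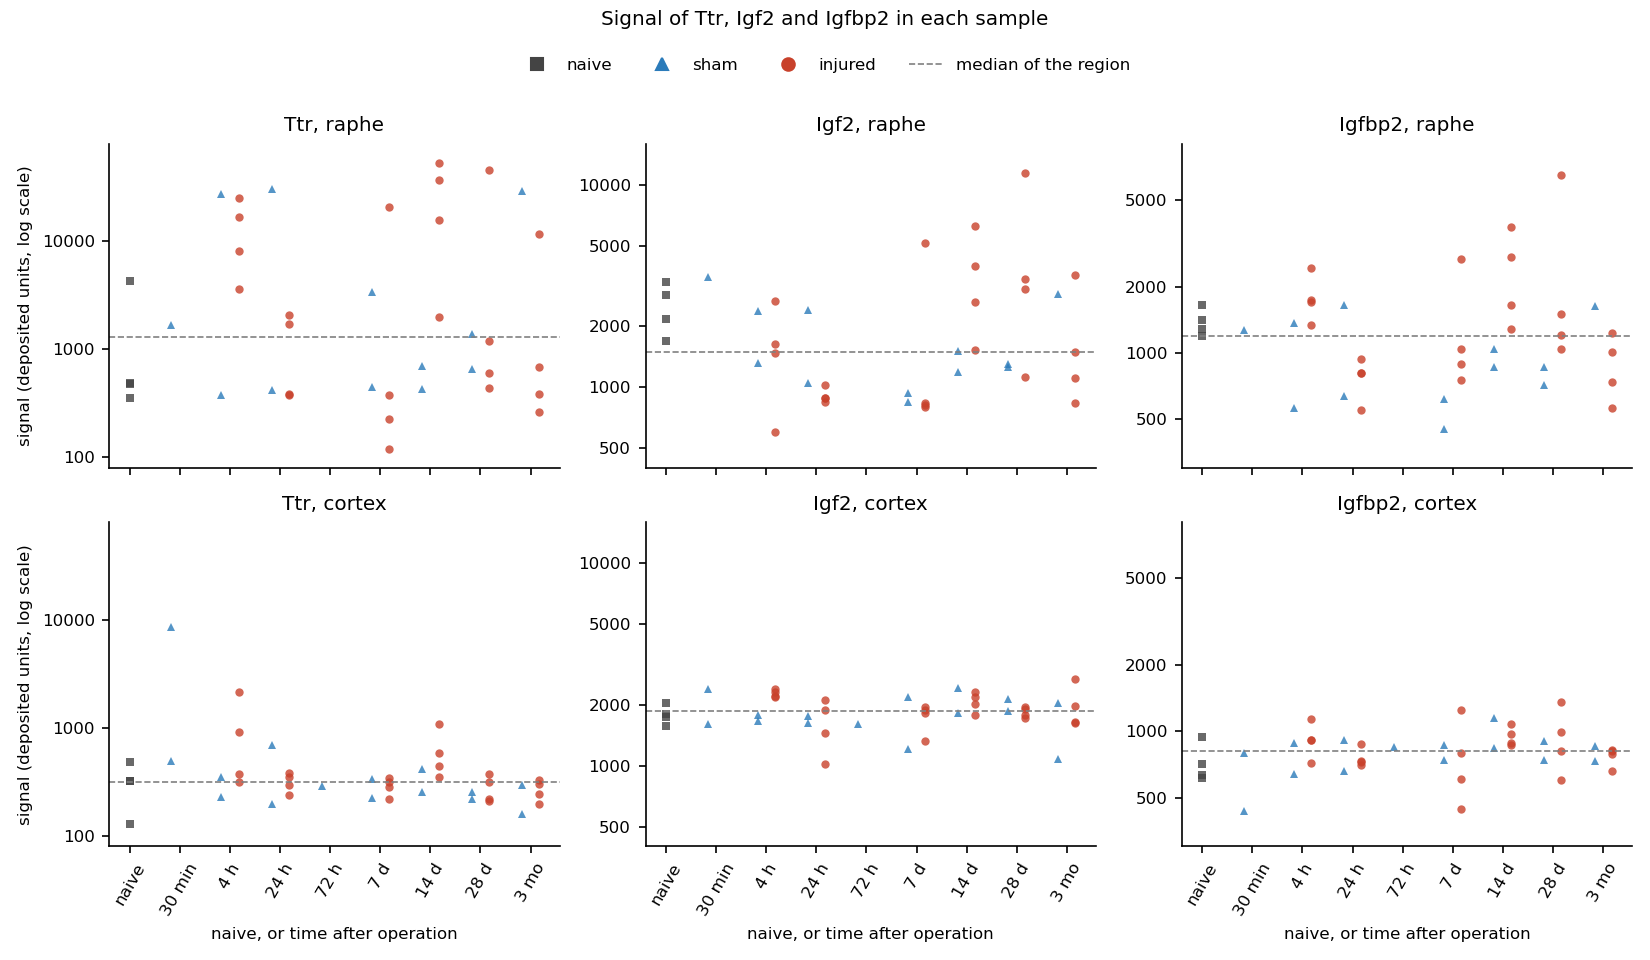
Signal of Ttr, Igf2 and Igfbp2 in every sample on the first array type, on a log axis, by region, treatment and time; each point is a sample. Raphe Ttr spans 118 to 52950 with high samples in the sham and the injured groups, while cortex Ttr is at most 1091 in all samples but 2; the dashed line is the median of the region.

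A sample was called high for a gene where its log2(signal + 32) lay at least 2 above the median of its region, a description with no test. The same scale, which shrinks the differences of low signals, holds for every bar below. By this rule 12 of 40 raphe samples were high for Ttr, namely 9 of 24 injured, 3 of 12 sham and 0 of 4 naive samples. Igf2 was high in 2 raphe samples and Igfbp2 in 1, and 10 samples were high for Ttr with neither of the others. The bar is the same for genes with within-group standard deviations of 2.39 (Ttr), 0.86 (Igf2) and 0.65 (Igfbp2). These counts therefore cannot be compared between the genes. The injured sample 2 at 28 d was high for all 3 genes, at 35.3 times the raphe median for Ttr, 7.65 times for Igf2 and 5.42 times for Igfbp2. At a lower bar of 1 log2 above the median, Ttr was high in 15 samples, Igf2 in 9, Igfbp2 in 5 and all 3 genes in 4, which were the injured samples 2 at 7 d, 1 and 2 at 14 d and 2 at 28 d. At that bar 5 samples were high for Igf2 without Ttr: the naive sample 4, the sham sample at 30 min, the injured samples 1 and 3 at 28 d and 2 at 3 mo. After quantile normalization the counts at 2 log2 were 12, 1 and 1 for Ttr, Igf2 and Igfbp2.

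The samples high for Ttr differed in how many other choroid plexus genes rose with it. The sham sample 1 at 24 h and the injured sample 4 at 4 h were also high for Ttr, and their counts are not given here. Of 21 listed choroid plexus genes on the first array type, those at least 1 log2 above the raphe median numbered 10 in the injured sample 2 at 28 d, 7 and 6 in the injured samples 1 and 2 at 14 d, 5 in the sham sample at 3 mo, and 3 each in the sham sample 1 at 4 h and the injured sample 2 at 7 d. Aqp1, a water channel of the choroid plexus epithelium, had a signal of 769 in the injured sample 2 at 28 d and 569 in the injured sample 1 at 14 d, against a raphe median of 38.1, a level below the control probe sets. Sostdc1, a secreted antagonist of BMP and Wnt signalling, had 2737 and 1751 in these samples against a median of 224. In the sham samples 1 at 4 h and 24 h Aqp1 was 193 and 210, and Sostdc1 was 724 and 699. The injured samples 2 and 3 at 4 h, 4 at 14 d and 4 at 3 mo had Ttr signals of 25329, 16722, 15850 and 11591 with 0 of the 21 genes past that bar. In the injured sample 2 at 4 h the highest were Sostdc1 at 461 and Aqp1 at 101, which are over 1 log2 above the median as plain signals but not with 32 added. The doubted injured sample 1 at 4 h had 6 of 21 past the bar with a Ttr of 2.80 times the median.

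A list of leptomeningeal genes, 28 of which were on the first array type, rose past the same bar in samples that overlapped with these only in part. The injured sample 2 at 28 d had 12 of 28 at least 1 log2 above the raphe median, the injured sample 2 at 3 mo had 10, the injured sample 1 at 28 d had 9 and the injured sample 2 at 7 d had 8. In the injured samples 1 at 28 d and 2 at 3 mo, with Ttr at 0.47 and 0.54 times the raphe median, 0 of 21 choroid plexus genes passed the bar. Aldh1a2, a retinoic acid-synthesizing enzyme of the leptomeninges, was 362 in the injured sample 2 at 3 mo, 240 in the injured sample 1 at 28 d and 332 in the injured sample 2 at 28 d, against a raphe median of 52.4. Col1a1, a chain of type I collagen made by fibroblasts, was 1081 in the injured sample 1 at 28 d and 1879 in the injured sample 2 at 28 d against 401. The injured sample 2 at 14 d had 6 choroid plexus genes and 0 leptomeningeal genes past the bar, and the injured sample 1 at 14 d had 7 of each. The 3 sham samples with the highest Ttr had 0, 0 and 1 leptomeningeal genes past it.

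**Figure D2:**
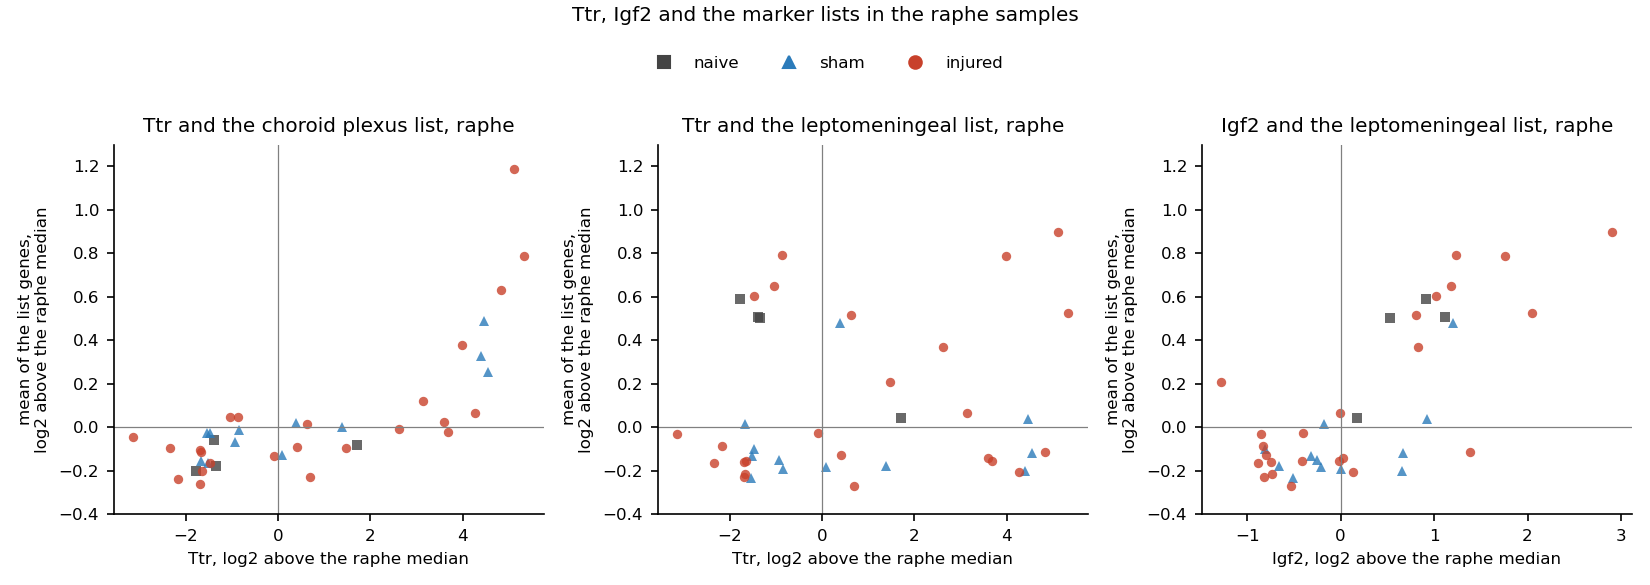
The mean over the choroid plexus list or the leptomeningeal list (vertical axes) against Ttr or Igf2 (horizontal axes), all as log2 above the raphe median, with 1 point per raphe sample and the treatment given by colour and shape. The choroid plexus mean rises with Ttr (r = 0.75), the leptomeningeal mean rises with Igf2 (r = 0.77) and has little relation to Ttr (r = 0.11).

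Over the 40 raphe samples the mean of the choroid plexus list, which does not hold the 3 genes, had a Pearson correlation of 0.75 with Ttr, 0.73 with Igf2 and 0.76 with Igfbp2. The mean of the leptomeningeal list had 0.11 with Ttr, 0.77 with Igf2 and 0.61 with Igfbp2. Of the 21 choroid plexus genes, 7 had a correlation over 0.5 with Ttr, 5 with Igf2 and 7 with Igfbp2. Of the 28 leptomeningeal genes, 0 had such a correlation with Ttr, 13 with Igf2 and 9 with Igfbp2. Over all 3724 genes that passed the filter the shares were 0.295%, 1.10% and 1.15%. These correlations are descriptions across samples whose genes share an array. The genes and lists were chosen with earlier results of these data known, so that the shares are not an independent comparison. In bulk tissue, fewer cells of a type and less RNA per cell cannot be told apart.

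The 5 genes whose raphe pattern was most like that of Ttr, by Pearson correlation over 40 samples among 3724 genes, were Sostdc1 (r = 0.77), Aqp1 (r = 0.77), Scgb1c1 (r = 0.76), Msx1 (r = 0.72) and Ace (r = 0.71). Of these, Sostdc1, Aqp1, Msx1 and Ace were on the choroid plexus list. For Igf2 they were Ptgds (r = 0.76), Aqp1 (r = 0.76), Col1a1 (r = 0.75), Spint2 (r = 0.75) and Slc6a13 (r = 0.75). Ptgds, the prostaglandin D synthase of the leptomeninges and choroid plexus, ran from 3870 to 25411, and its highest sample was the injured sample 2 at 3 mo. For Igfbp2 they were Sostdc1 (r = 0.78), Ezr (r = 0.77), RT1-A (r = 0.74), Cltrn (r = 0.73) and Aqp1 (r = 0.71). Rank correlations were 0.67 to 0.71 for the genes most like Ttr, and fell to 0.44 for Cltrn with Igfbp2. Cltrn and Aqp1 had raphe medians of 10.4 and 38.1, below the level of the control probe sets (median of the 90th percentiles 60.9). Without the doubted sample the gene most like Igf2 was Bmp6 (r = 0.81), the gene most like Igfbp2 was Spint2 (r = 0.80), and the same 5 genes stood with Ttr.

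By their brightest probe sets, the 3 genes rose together across the raphe samples. Ttr and Igf2 had a Pearson r of 0.53 and a Spearman rho of 0.55 over 40 samples (permutation test, two-sided, adjusted p = 0.00086 for r and 0.00064 for rho over 6 relations, raw p = 0.00043 and 0.00032). Ttr and Igfbp2 had 0.68 and 0.66 (permutation adjusted p = 3e-05 and 6e-05). Igf2 and Igfbp2 had 0.77 and 0.69 (permutation adjusted p = 3e-05 and 6e-05). The raw p of r for the latter pairs was 1e-05, the smallest that 100000 resamples can give. The genes were chosen with earlier results of these data known, so that these p-values are not an independent test. With the Igf2 probe sets M17960_g_at and M17960_at, which also lay above the controls on all 40 raphe arrays, the correlation of Igf2 was 0.08 and -0.11 with Ttr and 0.09 and 0.06 with Igfbp2 (permutation adjusted p from 0.77 to 0.82), so that the relations of Igf2 rest on the choice of probe set. The widest step between neighbouring raphe samples was 0.91 on the log2 scale for Ttr, 0.86 for Igf2 and 0.79 for Igfbp2. Whether the samples form clusters was not tested.

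The relation was also present on deviations from the group means and was weaker without the extreme samples. On these deviations the 3 correlations were 0.61, 0.72 and 0.75 over 38 samples. Without the 2 samples farthest from the median they were 0.41, 0.60 and 0.65, with permutation adjusted p of 0.024, 0.00018 and 0.00018. Among the 24 injured samples they were 0.61, 0.77 and 0.78 (permutation adjusted p = 0.0035, 9e-05 and 6e-05). Among the 16 sham and naive samples Ttr had 0.35 with Igf2 and 0.45 with Igfbp2, with permutation adjusted p of 0.31 and 0.23, and Igf2 had 0.85 with Igfbp2 (permutation adjusted p = 0.0006). Whether these correlations differ between the injured and the uninjured samples was not tested. Without the doubted sample Igf2 and Igfbp2 had 0.87.

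In the cortex the genes showed no relation that passed the test. The correlations over 43 samples were 0.31 for Ttr with Igf2, 0.07 for Ttr with Igfbp2 and 0.23 for Igf2 with Igfbp2, with permutation adjusted p of 0.076, 0.64 and 0.15, and rho of 0.21, 0.09 and 0.27. Without the 2 samples farthest from the median they were 0.16, -0.04 and 0.28. No listed choroid plexus gene had a correlation over 0.5 with any of the 3 genes there, and 1 of 28 leptomeningeal genes did, with Igfbp2.

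**Figure D3:**
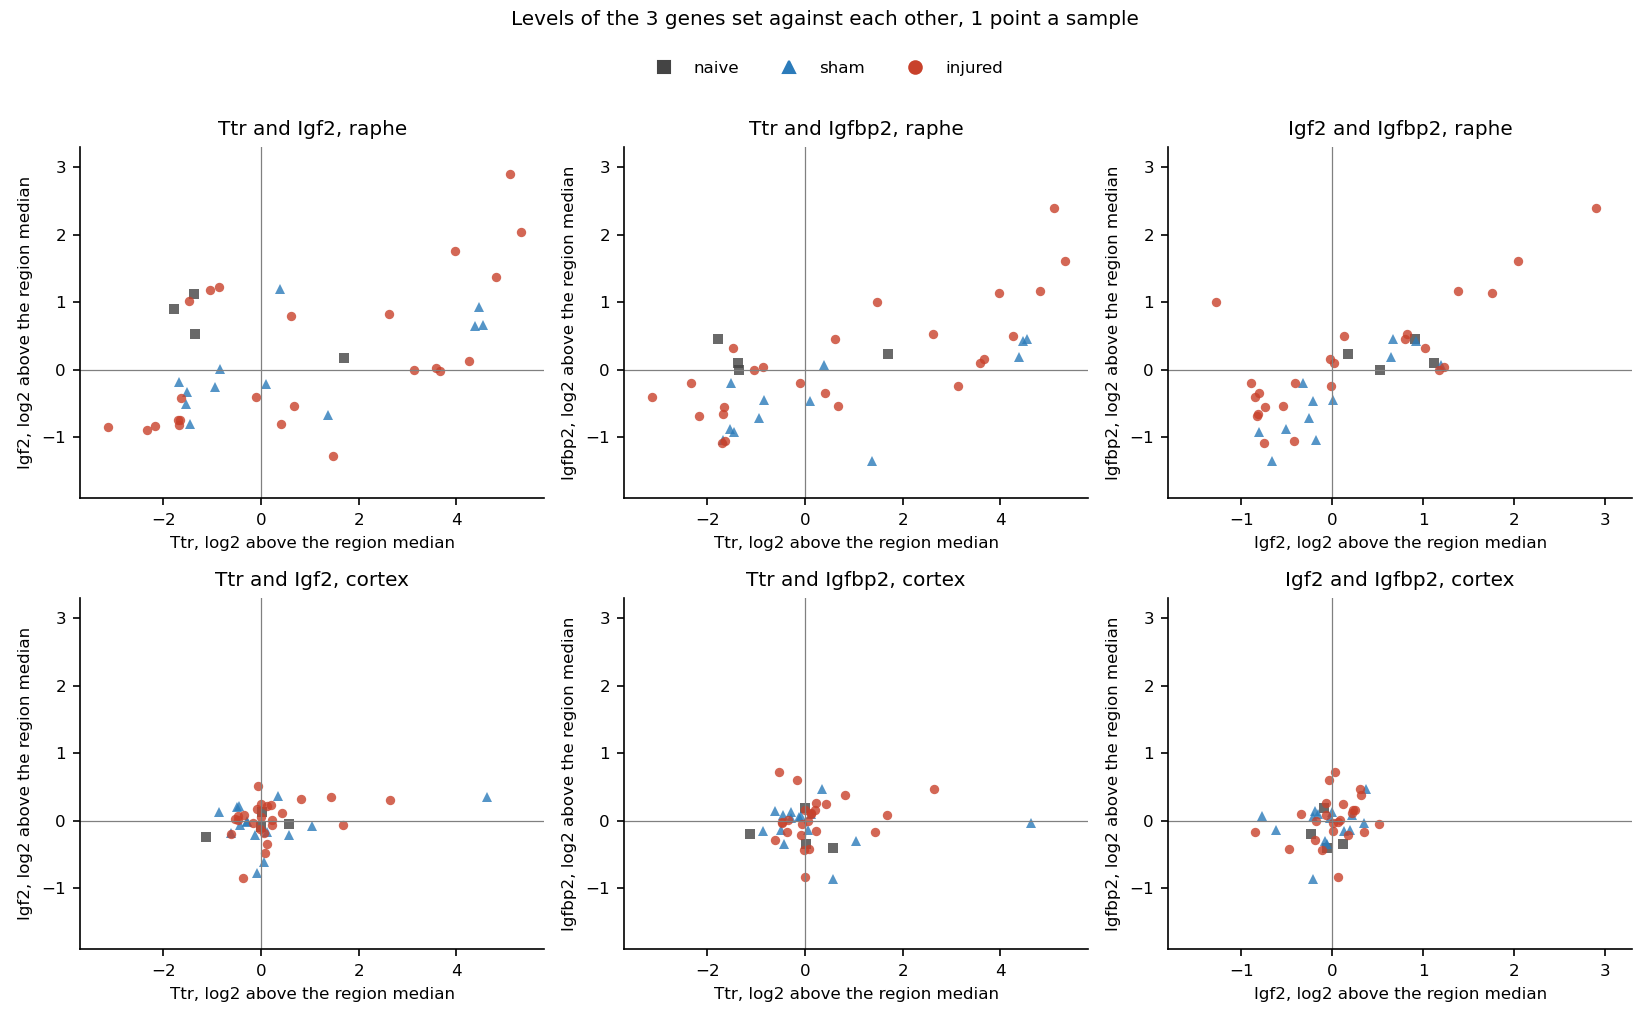
Each pair of the 3 genes against each other as log2 above the region median, with 1 point per sample, the raphe in the upper and the cortex in the lower panels. In the raphe the pairs have Pearson r of 0.53, 0.68 and 0.77, and in the cortex 0.31, 0.07 and 0.23.

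In the cortex Ttr was high, at least 2 log2 above the cortex median of 317, in the sham sample 2 at 30 min with 8614 and the injured sample 4 at 4 h with 2159. The naive cortex gave 320, 485, 127 and 321. The 24 injured samples had a lowest Ttr of 195, a median of 324 and a highest of 2159, and the 15 sham samples 159, 288 and 8614. Igf2 in these groups was 1746, 1794, 1575 and 2031 in the naive samples, with medians of 1791 in the sham and 1924 in the injured samples. Igfbp2 was 941, 612, 712 and 635 in the naive samples, with medians of 842 and 820. Neither Igf2 nor Igfbp2 was high in any cortex sample, also at the bar of 1 log2, by which Ttr was high in 5.

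The sham sample 2 at 30 min had 2 of 21 choroid plexus genes at least 1 log2 above the cortex median, Lbp at 225 against 64.2 and Krt8 at 176 against 71.8. It had 2 of 28 leptomeningeal genes past that bar, Foxd1 and Dcn. The genes most like Ttr in the cortex were Drd1 (r = 0.57), Rgs9 (r = 0.55), Tac1 (r = 0.54), Penk (r = 0.53) and Add2 (r = 0.52) over 43 samples among 3684 genes. Drd1, Rgs9, Tac1 and Penk are genes known for high expression in the striatum. Each had its highest cortex signal in the sham sample 2 at 30 min, with 762 for Drd1, 1056 for Rgs9, 2999 for Tac1 and 3666 for Penk, against cortex medians of 178, 53.0, 855 and 892. Their rank correlations with Ttr were 0.38, 0.29, 0.29 and -0.00, below the Pearson values, and the part of striatal tissue in the Ttr signal was not tested. The genes most like Igf2 in the cortex were Ctxn1, Pola2, Nptx2, Lgals3bp and Hpca, with r from 0.58 to 0.55, and those most like Igfbp2 were Nupr1, Trappc14, Dis3l2, Dnajc5 and Bcl7b, with r from 0.64 to 0.56.

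Injury against sham changed none of the 3 genes past the test in either region. Differences were fitted with limma on log2(signal + 32), a scale that understates the change of low genes, and p-values were adjusted by Benjamini-Hochberg over all probe sets of the 3 array types. Over the 6 times, 0.946% of 18716 probe sets were called in the raphe and 0.133% of 18769 in the cortex at an adjusted p under 0.05, and 0 of the 3 genes. For Igfbp2 in the raphe the injured minus sham difference was 0.52 ± 0.23 (SE) on the log2 scale, at an unadjusted limma p of 0.030 and an adjusted p of 0.269, and 16 of 24 injured samples lay above the mean of the sham samples of their time. Its probe set M91595exon_s_at gave 0.03 (limma adjusted p = 0.981). Without the sham sample 2 at 3 mo the difference was 0.81 (limma adjusted p = 0.055), a mean over the other times, since no sham sample at 3 mo was left. Igf2 differed by 0.19 ± 0.30 (limma adjusted p = 0.828, 10 of 24 above) and Ttr by -0.03 ± 0.83 (adjusted p = 0.993, 11 of 24 above). The 95% interval for Ttr ran from -1.72 to 1.66 log2, so that differences of that size were not detectable with this spread. In the cortex the differences were 0.36 ± 0.27 for Ttr, 0.10 ± 0.10 for Igf2 and 0.02 ± 0.12 for Igfbp2, with limma adjusted p from 0.655 to 0.963. Only Igfbp2 in the raphe had an unadjusted p under 0.05 among these 6 results. Over all probe sets, 2820 of 18716 had such a limma p in the raphe and 2140 of 18769 in the cortex. Without the doubted injured sample 1 at 4 h, 1158 probe sets were called in the raphe in place of 177, and still 0 of the 3 genes.

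Time by time, none of the 3 genes passed the test over all probe sets in the raphe or the cortex. The share of probe sets called at 4 h, 24 h, 7 d, 14 d, 28 d and 3 mo was 0.15%, 0.00534%, 0.801%, 0.0374%, 0% and 0.614% in the raphe and 0.016%, 0.0426%, 0.368%, 1.81%, 0% and 2.47% in the cortex. How many of all probe sets had injured and sham groups without overlap was not counted at any time. The separations given below are thus no result about the 3 genes. In the raphe at 14 d the injured and sham groups did not overlap for Ttr, Igf2 or Igfbp2. The differences were 4.77 ± 1.92 for Ttr (limma p = 0.019, adjusted p = 0.605), 1.22 ± 0.70 for Igf2 (adjusted p = 0.879) and 1.16 ± 0.53 for Igfbp2 (p = 0.037, adjusted p = 0.722). The Igf2 probe sets M17960_at and M17960_g_at gave -0.05 and 0.02 at that time. Of all 18716 probe sets, 1207 had an unadjusted limma p under 0.05 at 14 d and 2387 at 7 d. Each of the 4 injured samples also lay above the sham pair for Igfbp2 at 7 d, with a difference of 1.11 ± 0.53 (limma p = 0.047, adjusted p = 0.380), and at 28 d, with 1.22 ± 0.53 (p = 0.029, adjusted p = 0.669), although at 28 d no probe set was called and 1273 probe sets had an unadjusted limma p under 0.05. At 7 d the Igfbp2 probe sets M91595exon_s_at and A09811cds_s_at gave -0.67 and 0.23. At 3 mo the 4 injured samples lay below the lone sham sample for Igfbp2, with a difference of -0.92 ± 0.69 (limma adjusted p = 0.724). At 3 mo the Ttr difference from the lone sham sample was -4.85 ± 2.48, with a limma adjusted p of 0.495. With a single sham sample these 3 mo values have no spread of their own sham group. At 24 h the 4 injured samples lay below the mean of the sham pair for each gene, and the sham pair overlapped them for Ttr and Igfbp2. The time course of the injured raphe had unadjusted limma F-test p of 0.026 for Ttr, 0.014 for Igf2 and 0.0065 for Igfbp2, with adjusted p of 0.221, 0.184 and 0.141. In that test 0.486% of probe sets were called, and 3420 of 18716 had an unadjusted p under 0.05. Whether the difference between injured and sham raphe varied with time was tested in the same way, with p of 0.058 for Ttr, 0.128 for Igf2 and 0.055 for Igfbp2 (limma adjusted p = 0.493, 0.603 and 0.487), where 0% were called and 1974 of 18716 had an unadjusted p under 0.05. In the cortex the limma adjusted p of these F tests were 0.40 or higher, where 1.1% and 0.97% were called. The cortex difference for Ttr was largest at 4 h, with 1.22 ± 0.67 (limma adjusted p = 0.680), and the 4 h injured group held the high sample named above. Cortex groups were without overlap only for Igf2 at 4 h. There the injured signals were 2185 to 2382, against 1665 and 1791 in the sham pair.

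**Figure D4:**
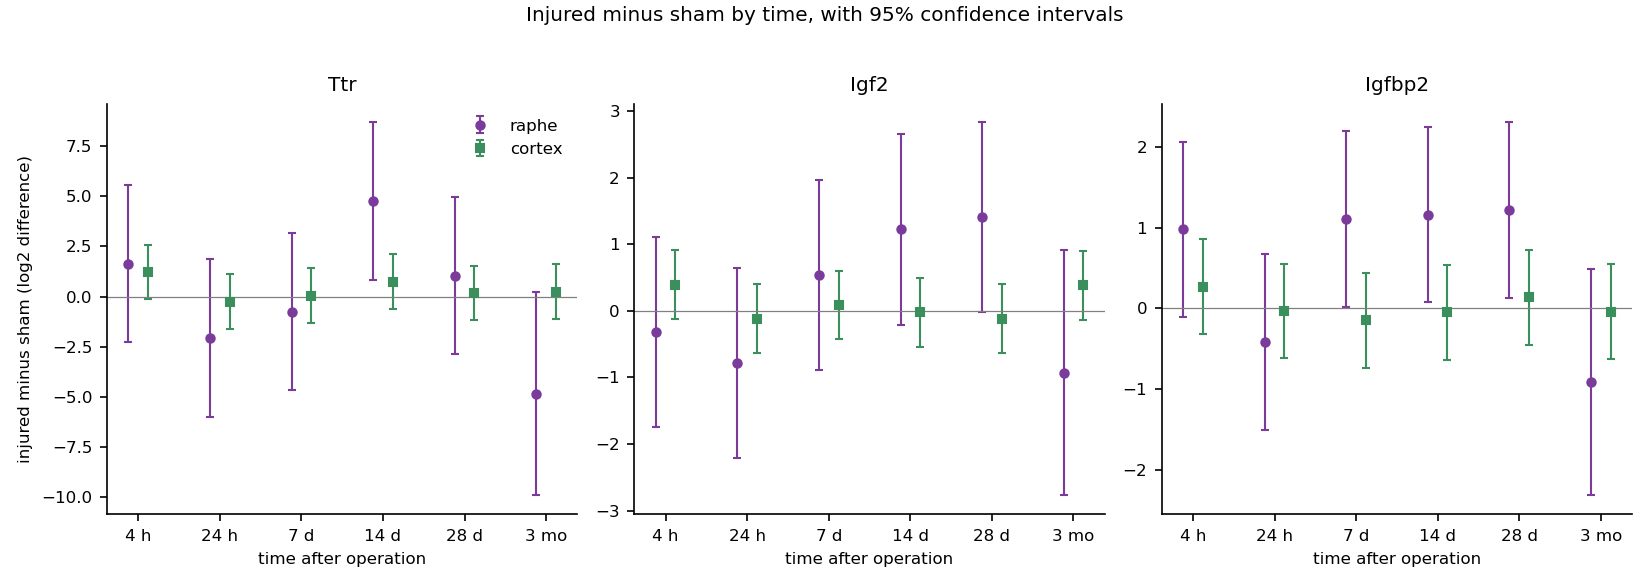
Injured minus sham difference on the log2(signal + 32) scale at each of the 6 times for the 3 genes in both regions, with bars for the 95% confidence interval from limma. The raphe values run from -4.85 for Ttr at 3 mo to 4.77 at 14 d, and no value passed the test over all probe sets.

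The gene lists were compared between injured and sham raphe in the same fits. Over the 6 times, where 0.946% of all probe sets were called, 0 of 28 tested choroid plexus genes were called, 17 lay above 0 and their median difference was 0.03 log2. Of 36 leptomeningeal genes 1 was called and 31 lay above 0, with a median of 0.24, beside a median of -0.00 over all probe sets tested. The called gene was Timp3, an inhibitor of metalloproteinases, at 0.57 ± 0.10 higher (limma adjusted p = 0.0043). Time by time the choroid plexus list lay on either side of 0. Its median was 0.07 at 4 h, -0.36 at 24 h, -0.01 at 7 d, 0.40 at 14 d, 0.31 at 28 d and -0.42 at 3 mo, with 16, 5, 14, 23, 23 and 7 of 28 genes above 0. The leptomeningeal list had medians of 0.08, -0.07, 0.32, 0.40, 0.72 and 0.15 at these times, with 22, 13, 27, 30, 33 and 23 of 36 above 0. In these comparisons at single times the only gene of both lists called was Cox8b of the choroid plexus list, a subunit of cytochrome oxidase, which was 1.77 ± 0.32 higher at 7 d (limma adjusted p = 0.0062), where 0.801% of all probe sets were called. Of 25 genes of the insulin-like growth factor system and 21 of thyroid hormone and retinol handling, none were called over the 6 times. The list means moved with the 3 genes across samples as given above, and their part in the group differences was not tested.

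Sham against naive raphe showed no called change of the 3 genes. The sham minus naive difference was 1.65 ± 1.31 log2 for Ttr, -0.66 ± 0.48 for Igf2 and -0.57 ± 0.36 for Igfbp2, with limma adjusted p of 0.622, 0.569 and 0.505, where 1.35% of probe sets were called. The Ttr value was 0.95 without the sham sample 2 at 3 mo, which takes 3 mo out of the sham mean. It was 2.45 without the naive sample 2 and 0.89 with a replicate block, and it was not called in these fits. Among the leptomeningeal genes 3 of 36 were called, all lower in the sham samples: Vtn, an adhesive plasma and matrix protein (-0.68 ± 0.13), Aebp1 (-0.84 ± 0.17) and Slc6a13, a GABA transporter of the leptomeninges (-1.32 ± 0.35). The median of that list was -0.49, and its mean level was 8.26 to 8.81 in the naive raphe against a median of 8.08 in the sham raphe. Of the choroid plexus list 0 of 28 were called, with a median of 0.29. Of 7 genes of red blood cells 5 were called lower in the sham raphe, led by the globin gene Hba-a1 (-0.88 ± 0.16). The mean level of that list was 11.61 to 11.79 in the naive samples and 10.53 to 11.66 in the sham samples (median 11.08), which overlapped. The part of that list in the differences of the 3 genes was not tested. Injured against naive raphe gave 1.61 ± 1.20 for Ttr, -0.48 ± 0.44 for Igf2 and -0.05 ± 0.33 for Igfbp2, with limma adjusted p from 0.536 to 0.966, where 3.05% were called. In the cortex none of the 3 genes was called against naive samples, and the differences ran from -0.02 to 0.34 log2, where 0.49% of probe sets were called for sham and 2% for injured samples.

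Ttr was higher in the raphe than in the cortex. In injured samples over the 6 times it was 2.62 ± 0.49 log2 higher (limma adjusted p = 7.1e-06), a 6.15-fold difference, and 10 of 24 raphe samples lay above the highest cortex sample. In sham samples it was 3.02 ± 0.72 higher (limma adjusted p = 0.00061), with 6 of 11 samples above the highest cortex sham sample of the 6 times, 694. In naive samples the difference was 1.35 ± 1.20 (limma adjusted p = 0.543), with 1 of 4 above, and it was 0.54 without that sample, the naive sample 2. The background of calls was 48.2% in the injured, 32.7% in the sham and 14.2% in the naive comparison, of which 24.3%, 15.7% and 6.65% were higher in the raphe and 24%, 16.9% and 7.59% lower. Without the doubted samples the differences were 2.72 and 3.14 in the injured and sham samples.

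Igfbp2 was 0.66 ± 0.14 higher in the injured raphe than in the injured cortex (limma adjusted p = 0.00011). Its probe set M91595exon_s_at gave 0.04 (limma adjusted p = 0.886), while A09811cds_s_at kept the direction and the call, so that this call rests on the choice of probe set. In sham samples the Igfbp2 difference was 0.16 ± 0.21 (limma adjusted p = 0.620) and in naive samples 0.91 ± 0.35 (adjusted p = 0.074), where all 4 naive raphe samples lay above the highest naive cortex sample. The share of all probe sets with such a separation was not counted, and 14.2% were called in the naive comparison. The separation is thus no result about Igfbp2. Without the injured raphe sample 2 at 28 d, which enters that fit through the shared spread, the naive difference was 0.91 with a limma adjusted p of 0.030. Igf2 did not differ past the test in any of these comparisons, with -0.12 ± 0.18, -0.20 ± 0.26 and 0.44 ± 0.43 in injured, sham and naive samples. Its probe set E00988mRNA_s_at gave -1.14 in sham samples (limma adjusted p = 0.036). That probe set lay above the control probe sets on only 11 of 40 raphe and 24 of 43 cortex arrays, so that this value is near the floor. The injury effect did not differ between the regions past the test: the difference of differences was -0.40 ± 0.87 for Ttr, 0.09 ± 0.31 for Igf2 and 0.50 ± 0.26 for Igfbp2 (limma adjusted p = 0.938, 0.969 and 0.605), where 0.0206% of probe sets were called.

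Between injured samples of the regions, where 24.3% of all probe sets were called higher in the raphe and 24% lower, 19 of 28 choroid plexus genes were called higher in the raphe and 2 lower, with a median of 0.51 log2. The 4 with the smallest p were Htr2c (2.84 ± 0.18), a serotonin receptor also made by neurons, Enpp2 (1.84 ± 0.12), the enzyme autotaxin that oligodendrocytes also make, Slc12a2 (1.56 ± 0.16), an ion cotransporter, and Slc29a4 (2.16 ± 0.22), a monoamine transporter. Of 36 leptomeningeal genes 5 were called higher and 12 lower in the injured raphe, with a median of -0.13, led by Aldh1a2 (-1.59 ± 0.22) and Col1a1 (-0.996 ± 0.16). Between naive samples 0 leptomeningeal genes were called by limma, 25 of 36 lay above 0 and the median was 0.19. Of the genes most like Ttr in the raphe, Sostdc1 was 0.83 ± 0.21 higher in the injured raphe (limma adjusted p = 0.00061), and Aqp1 differed by -0.06 ± 0.24 (adjusted p = 0.867). In the insulin-like growth factor system 9 of 25 genes were called higher and 3 lower, led by Dlk1, an imprinted Notch-like protein (2.80 ± 0.12), and Igfbp5 (1.79 ± 0.13). Among the genes of thyroid hormone and retinol handling 5 of 22 were called higher and 10 lower, led by Crym, a cytosolic thyroid hormone-binding protein (-4.65 ± 0.18), and Aldh1a1 (2.18 ± 0.09).

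The other probe sets bear on how far each pattern can be read. The second Ttr probe set correlated with the first at 0.96 in the raphe and 0.88 in the cortex. The other Igfbp2 probe sets correlated with J04486_at at 0.59 and 0.65 in the raphe and 0.07 and 0.11 in the cortex. The 5 other Igf2 probe sets correlated with X17012mRNA_s_at at -0.17 to 0.71 in the raphe, the highest being E00988mRNA_s_at, which lay above the control probe sets on 11 of 40 raphe arrays. With that probe set Igf2 had 0.45 with Ttr and 0.76 with Igfbp2 in the raphe. M17960_g_at and M17960_at, above the controls on all 40, correlated with X17012mRNA_s_at at -0.02 and -0.17. With X17012mRNA_s_at the relation of Igf2 and Igfbp2 in the raphe was 0.81 and 0.85 with the other Igfbp2 probe sets, and that of Ttr and Igfbp2 was 0.55 and 0.56.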

How the data were processed

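RNA of rat raphe and somatomotor cortex was measured on 3 types of 1-colour oligonucleotide arrays, and each sample gave at most 1 array of a type. The deposited values are signal intensities on a linear scale, and the trimmed means show that the authors had scaled each array. The program that made them and its settings are not given in the sources used here. Genes were named from the platform annotation, in which 18178 of 26202 probe sets had 1 symbol, 391 had several and 7633 had none.

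Samples were grouped by their titles. Signals were used as deposited on the log2(signal + 32) scale. Probe sets above the 40th percentile of their array on at least 4 arrays of a region were tested by fitting group means with no covariate, separately for each array type. The package was limma 3.58.1, run under R 4.3.3, and statmod 1.5.0 served the array weights. P-values were adjusted by Benjamini-Hochberg over the 3 types together, with a threshold of 0.05. Comparisons between regions used both regions in the same fit and kept probe sets that passed in either. Correlations used 100000 permutations and were adjusted over 6 relations. Computation used Python 3.11.15, numpy 2.4.6, pandas 2.3.3 and scipy 1.17.1, and plots were made with matplotlib 3.10.9. The fits were tested on simulated data.

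The 3 genes are always named. For each gene and region the 5 genes with the highest Pearson correlation were named, as were up to 4 called genes of a list by the smallest p. In a sample that stood apart, list genes far above the median of the region were named. The genes and the marker lists were chosen with earlier results of these data known. The lists covered the choroid plexus, the leptomeninges, ependyma, vessels, red blood cells, astrocytes, the insulin-like growth factor system, thyroid hormone and retinol handling, and identity genes of the cortex and the raphe. Sequences and positions come from RefSeq tables of GRCr8, and the probes' own sequences were not used. The alternatives were another constant before the log, quantile normalization, other filters, array weights, a replicate block, leaving out each sample, leaving out doubted samples, leaving out the arrays with conflicting labels, and the other probe sets. The number of arrays limits the precision, and no batch was recorded in the sources used here.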

Additional observations from a re-analysis of the deposited data

Results flagged for a closer look

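In a total of 42 groups and genes with 4 samples, 2 held a sample whose gap to the nearest other sample took nearly the whole range of its group on the log2(signal + 32) scale, and chance alone marks about 5% of such groups. Igf2 in the injured raphe at 7 d was 5137 in sample 2 and 795, 817 and 837 in the others. Ttr in the naive raphe was 4254 in sample 2 and 351, 473 and 484 in the others.

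The sham samples at 30 min entered no comparison, and some of their signals lay above the highest naive sample of their region. In the raphe, Igf2 was 3488 in the only such sample against a highest naive signal of 3296. In the cortex, Ttr was 487 in sample 1 and 8614 in sample 2 against a highest naive signal of 485, and Igf2 was 2383 in sample 2 against 2031.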

How the results depend on the processing

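The 48 group differences of the 3 genes were computed under 489 alternatives other than leaving out a sample, of which 447 kept direction and call and 40 changed sign, 33 of these by the use of another probe set, and none of the 40 was called. A further 2 changed the call: Igfbp2 in the injured raphe against the injured cortex gave 0.040 with M91595exon_s_at in place of 0.66, and Igf2 in the sham raphe against the sham cortex gave -1.14 with E00988mRNA_s_at in place of -0.20. Of 2499 results with a sample left out, 52 changed sign and 1 changed the call, Igfbp2 in the naive raphe against the naive cortex (0.83 to 1.04). The cause of these changes was not tested, and all values are log2 differences unless said otherwise. Injured minus sham over the 6 times moved for Ttr in the raphe from -0.03 to 0.052 after quantile normalization, 0.052 without the 5 doubted samples and 0.064 with rc_AA945169_g_at, and from -0.54 to 0.93 by leaving out a sample. The 0.93 came without the sham sample 2 at 3 mo. Any fit without that sample leaves 3 mo out of the contrasts of the 3 genes that use raphe sham samples. With a replicate block the Ttr difference was 0.72 (limma adjusted p = 0.786), and the block changed no call for the 3 genes. Sham and injured samples of the same region, time and replicate number were compared by their deviations from the group means. Of 22 such pairs 1 had a correlation over 0.1 (-0.14 to 0.15). In a sham group of 2 these deviations mirror each other, so that the check cannot exclude pairing. Raphe and cortex samples of the same number were not compared in this way and were fitted as independent samples. Igf2 gave -0.19 in the raphe and -0.070 in the cortex with M17960_g_at, and -0.080 in the cortex with E00988mRNA_s_at. Igfbp2 in the cortex gave -0.23 with A09811cds_s_at and -0.020 to 0.060 by leaving out a sample. The difference of this effect between regions was -0.90 to 0.56 for Ttr and -0.021 to 0.31 for Igf2 by leaving out a sample, -0.013 with M17960_at and -0.12 with M17960_g_at for Igf2, and -0.16 with M91595exon_s_at for Igfbp2.

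Sham minus naive gave 0.25 for Igf2 in the raphe with M17960_g_at. In the cortex it gave for Ttr 0.0030 with array weights and -0.36 to 0.21 by leaving out a sample, for Igf2 0.0046 with the replicate block, 0.025 without the doubted samples, 0.15 with E00988mRNA_s_at, 0.079 with M17960_g_at and -0.093 to 0.058 by leaving out a sample, and for Igfbp2 -0.23 with M91595exon_s_at. Injured minus naive gave 0.065 for Igf2 in the raphe with M17960_g_at and -0.15 to 0.040 for Igfbp2 there by leaving out a sample. In the cortex it gave -0.23 for Ttr with rc_AA945169_g_at, -0.0075 for Igf2 with M17960_at, and -0.065 and -0.046 for Igfbp2 with A09811cds_s_at and M91595exon_s_at. Naive raphe minus cortex for Igf2 was -0.026 with M17960_at and -0.21 with M17960_g_at. Sham raphe minus cortex for Igfbp2 was -0.054 with A09811cds_s_at and -0.0048 to 0.27 by leaving out a sample.

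By time in the raphe, Igf2 gave 0.075 at 4 h without the doubted sample, 0.22 at 4 h and 0.0044 at 24 h with E00988mRNA_s_at, 0.091, -0.13, -0.049, -0.31 and 0.67 at 4 h, 7 d, 14 d, 28 d and 3 mo with M17960_at, and 0.045, -0.14 and -0.29 at 4 h, 7 d and 28 d with M17960_g_at. Igfbp2 gave -0.35 at 4 h with A09811cds_s_at, and -0.62 at 4 h and -0.67 at 7 d with M91595exon_s_at. Leaving out a sample gave -1.39 to 4.68 at 4 h, -5.11 to 0.97 at 24 h, -2.34 to 0.67 at 7 d and -0.45 to 1.75 at 28 d for Ttr, -0.74 to 0.10 at 4 h and -0.12 to 0.76 at 7 d for Igf2, and -1.09 to 0.25 at 24 h for Igfbp2. Correlations of Ttr in the sham and naive raphe were 0.35 with Igf2 and 0.45 with Igfbp2. With other Igf2 probe sets, an alternative added after seeing the data, the raphe correlation of Igf2 with Ttr was 0.078 (M17960_g_at), -0.11 (M17960_at), -0.11 (X16703_r_at) and -0.056 (X16703_i_at), and with Igfbp2 0.087, 0.063, 0.037 and -0.13. In the cortex it was -0.38 (M17960_at), -0.021 (M17960_g_at) and -0.057 (X16703_i_at) with Ttr, and -0.036 (M17960_at), -0.15 (M17960_g_at), -0.047 (E00988mRNA_s_at), -0.021 (X16703_r_at) and -0.21 (X16703_i_at) with Igfbp2. In the cortex that of Ttr with Igfbp2 was -0.045 without the 2 farthest samples, -0.073 in sham and naive samples and -0.029 to 0.12 by leaving out a sample. At 1 log2 above the median, high raphe samples numbered 9 for Igf2, 5 for Igfbp2 and 4 for all 3 genes, and high cortex samples 5 for Ttr, and after quantile normalization 1 raphe sample was high for Igf2.

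The number of probe sets called moved with the samples. For injured against sham raphe it was 177, with 77 to 1158 by leaving out a sample and 39 (replicate block) to 1538 (array weights) otherwise. For the cortex it was 25, with 9 to 653 and 5 to 28. For sham against naive it was 253 in the raphe, with 146 to 1034 and 199 to 1132, and 92 in the cortex, with 18 to 318 and 17 to 157. For injured against naive it was 570 in the raphe, with 316 to 1893 and 514 to 2081, and 375 in the cortex, with 66 to 551 and 250 to 1143. For the difference between regions it was 4, with 0 to 83 and 0 to 4. Sham groups held 2 samples a time, and 1 at 3 mo in the raphe, and the 3 probe sets lay above the control probe sets on all arrays.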

Other observations

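Some listed genes were called in comparisons in which the 3 genes were not, at counts too small to describe their lists. Between injured and naive raphe 2 of 21 genes of thyroid hormone and retinol handling, 0 of 25 of the insulin-like growth factor system and 1 of 28 of the choroid plexus were called by limma, where 3.05% of all probe sets were. Klf9, a transcription factor induced by thyroid hormone and glucocorticoids, was higher in injured than in naive samples by 1.03 ± 0.20 log2 in the raphe (limma adjusted p = 0.0033) and by 0.60 ± 0.14 in the cortex (limma adjusted p = 0.024). The other called gene of that list in the raphe was Slc7a5, an amino acid and thyroid hormone transporter, at -0.56 ± 0.13 (limma adjusted p = 0.012). Klf9 also changed over time in the injured cortex (limma F test, adjusted p = 0.0097), as did Slco1c1, a thyroid hormone transporter of brain capillaries (adjusted p = 0.015), and Fn1, fibronectin (adjusted p = 1e-05). Htr2c of the choroid plexus list was 1.36 ± 0.37 higher in the injured than in the naive raphe (limma adjusted p = 0.036). In the cortex at 3 mo, where 2.47% of probe sets were called, 2 of 25 growth factor genes and 2 of 22 thyroid and retinol genes were called. Aldh1a2 (1.14 ± 0.31) and Igf2bp3, an RNA-binding protein of Igf2 mRNA (1.70 ± 0.47), were higher in injured than in sham samples. Igfbp5 (-1.52 ± 0.31) and Aldh1a1, a retinaldehyde dehydrogenase (-1.30 ± 0.25), were lower, with limma adjusted p from 0.0065 to 0.049. In the same comparison Tppp3 of the ependymal list, 1 of 4 tested, was also lower, at -2.85 ± 0.64 (limma adjusted p = 0.018), and the list of cortical genes had a median of 0.52 with 7 of 8 above 0 and none called, beside a median of 0.07 over all probe sets tested. The doubted cortex sham sample 1 is part of that sham pair, and the part of that sample and of these markers in the values was not tested.

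Lists of other cell types were set beside the 3 genes in the raphe. Of 8 ependymal, 5 red blood cell and 12 astrocyte genes on the first array type, 0 had a correlation over 0.5 with any of the 3 genes over 40 samples, and of 18 vessel genes 1 did, with Igfbp2. Over all 3724 genes the shares were 0.295% for Ttr, 1.10% for Igf2 and 1.15% for Igfbp2. Between injured and sham raphe over the 6 times, where 0.946% of all probe sets were called, 0 of 7 ependymal, 0 of 22 vessel, 0 of 7 red blood cell and 0 of 17 astrocyte genes were called by limma, with medians of 0.09, 0.08, 0.07 and -0.10 log2. The cortex sham sample at 72 h, which entered no comparison, had signals of 288 for Ttr, 1600 for Igf2 and 852 for Igfbp2.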
